A study of Drosophila melanogaster with 2 samples.

Results

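The vacuolar ATPase (V-ATPase) subunit genes of Drosophila melanogaster were taken as the protein-coding genes of Ensembl release 115 whose symbols begin with Vha, which gave 33 of the 13945 such genes on the major chromosome arms (X, 2L, 2R, 3L, 3R and 4). Of these, 14 encode the widely used form of a subunit or accessory protein, and 19 are additional copies of a subunit. ATP6AP2, an accessory protein of the pump, has a symbol outside this rule and is given separately. The study mapped binding of 1 protein, CG32121, by chromatin immunoprecipitation and sequencing (ChIP-seq). Whole pupae (2 days old) of the transgenic strain CG32121-GFP were used, in which CG32121 is fused to eGFP, and chromatin was precipitated through the tag with an anti-GFP antibody. The samples formed 1 group of 2 biological replicates, recorded in the labels as separate biological samples, and sex was not recorded. No input or untagged sample was analysed here, the libraries come from mixed cells of the whole animal, and expression of the Vha genes was not measured.

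The V-ATPase is a rotary proton pump of lysosomes, endosomes, the Golgi and the plasma membrane of some epithelia. Its V1 sector lies in the cytosol and hydrolyses ATP, and its V0 sector lies in the membrane and carries protons. In insect renal tubules and other epithelia the pump at the apical membrane energises ion and fluid transport. Many of its fly subunits exist in several gene copies. One copy of each is used in most tissues, and many others are expressed mainly in the male germ line or in another restricted set of tissues.

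The V1 subunit A genes lie close together and show how differently copies of 1 subunit were called. Vha68-2, the widely used copy, and Vha68-1 each had a summit within 500 bp of a transcription start site (TSS), whereas Vha68-3, whose body begins 178 bp after the end of Vha68-2, had none. A summit is the position of highest signal within a peak. The bases around the summits of the first 2 genes (50 on each side), and the 101 bases before the TSS of Vha68-3, are given from the Release 6 (dm6) reference, each read 5′ to 3′ along the strand of its gene. Capitals mark a match to the motif 1 core (GGTCACAC, here on the opposite strand) at Vha68-2. At the other genes they mark a match to the TATA box sequence (TATAAA), on the opposite strand at Vha68-1. The TATAAA matches lie at -211 to -206 from the TSS of Vha68-1 and at -73 to -68 from that of Vha68-3. Such a match was present in the promoter bases searched at 45.8% of all genes.
Vha68-2 (chr2L:12974148-12974248, plus strand): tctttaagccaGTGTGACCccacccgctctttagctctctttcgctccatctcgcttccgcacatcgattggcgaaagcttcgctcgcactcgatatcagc
Vha68-1 (chr2L:13004279-13004379, minus strand): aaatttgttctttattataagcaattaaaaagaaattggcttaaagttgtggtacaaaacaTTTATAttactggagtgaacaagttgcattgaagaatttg
Vha68-3 (chr2L:12978685-12978785, plus strand): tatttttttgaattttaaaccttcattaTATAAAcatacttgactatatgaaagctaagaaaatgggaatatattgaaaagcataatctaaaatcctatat
The bound Vha68-2 window had 54.5% G and C. The bound Vha68-1 window had 25.7% and the unbound Vha68-3 window, which is not centred on a summit, 20.8%.

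The V0 subunit a genes Vha100-2 and Vha100-4 also lie together, 517 bp apart, and differed in the same way. The strongest peak at any Vha gene (18397075 to 18397349 on 3R) had its summit 281 bp upstream of the inner TSS of Vha100-2. That summit lay nearer (214 bp) to the TSS of the neighbouring gene Vti1b. Vha100-4 had no promoter summit. The 66 bases between the inner TSS of Vha100-2 and the TSS of Vti1b, a SNARE gene on the opposite strand, and the 101 bases before the TSS of Vha100-4 are given along the strand of the Vha gene. The capitals mark an E-box (CAGCTG) just before the inner TSS. These 66 bases lie outside the peak, which begins at 18397075, so they are not the bound sequence. None of the short motifs searched was found in the bases around either promoter summit of Vha100-2.
Vha100-2 and Vti1b (chr3R:18396929-18396994, minus strand): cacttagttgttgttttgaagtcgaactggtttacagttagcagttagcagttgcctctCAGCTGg
Vha100-4 (chr3R:18389806-18389906, minus strand): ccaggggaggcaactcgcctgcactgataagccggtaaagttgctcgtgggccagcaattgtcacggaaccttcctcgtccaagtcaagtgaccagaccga

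Of the 33 Vha genes, 8 (24.2%) had a promoter summit in the conservative list of the series, beside 21.5% of all protein-coding genes. The share of the Vha genes was thus near the background. Of the 14 widely used genes, 6 (42.9%) had one, and of the 19 additional copies, 2 (10.5%). In V1, 5 of 13 genes were bound, which were Vha68-1, Vha68-2, Vha36-1, Vha44 and VhaSFD. In V0, 3 of 18 genes were bound, which were Vha100-2, Vha16-1 and Vha16-5. Neither accessory gene, VhaAC45 or VhaAC45RP, was bound. A summit in the gene body alone was found at 0 of the 33 genes, beside 5.49% of all protein-coding genes. Members are genes and not replicates, so these counts are given without a test.

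**Figure D1:**
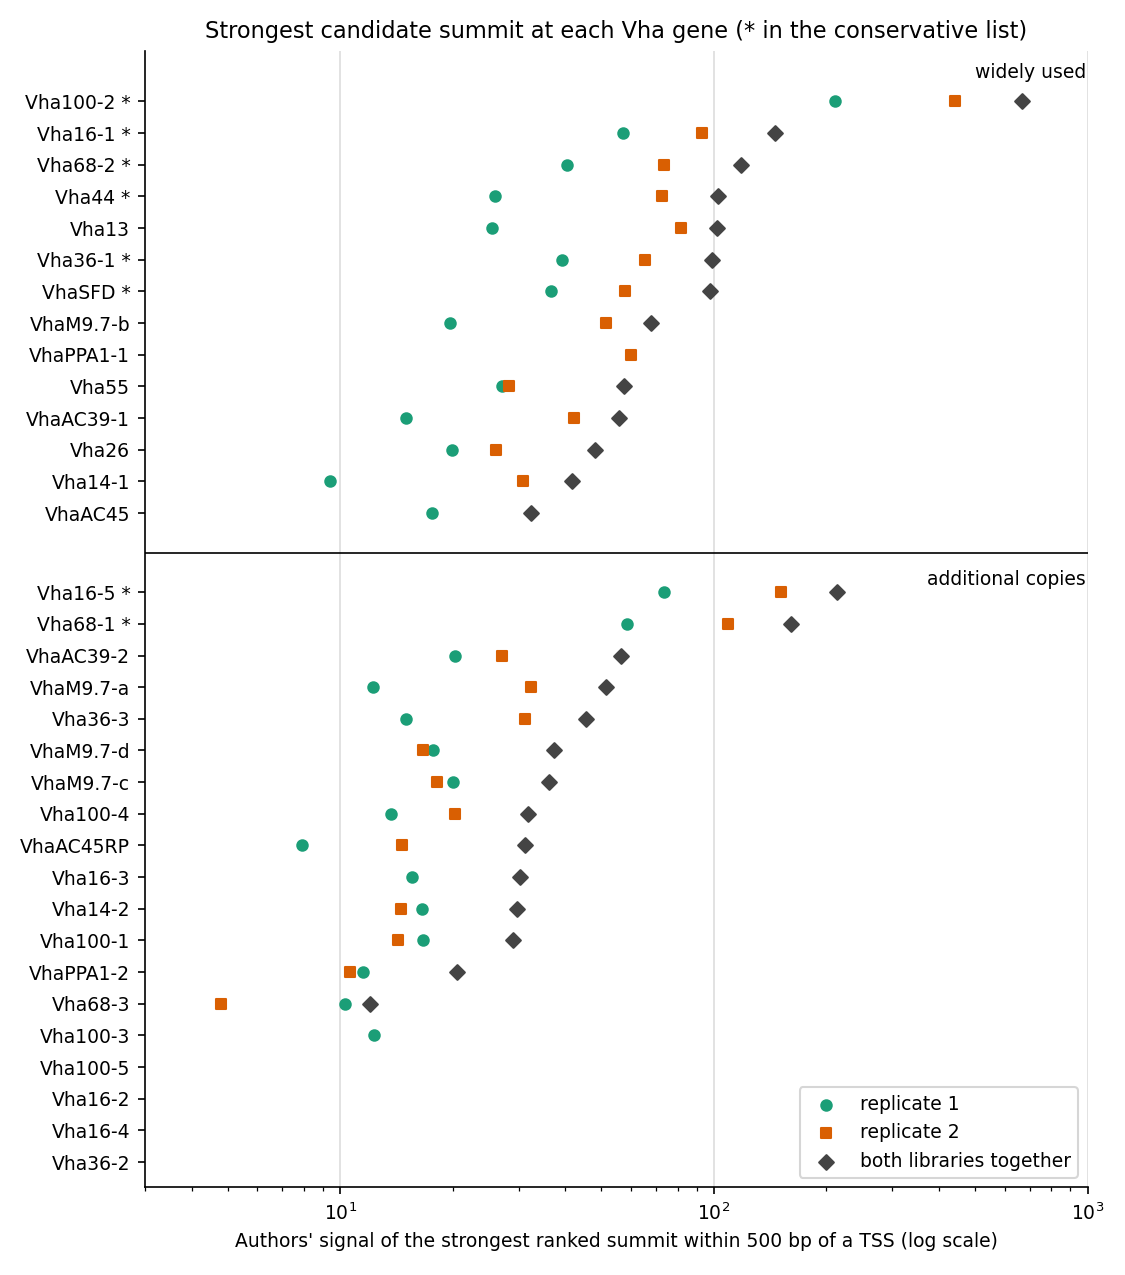
The authors' signal (log scale) of the strongest ranked summit within 500 bp of a TSS at each of the 33 Vha genes, in replicate 1 (circles), replicate 2 (squares) and both libraries together (diamonds). Asterisks mark the 8 genes bound in the conservative list, of which Vha100-2 has the highest signal (665.7), and the lowest rows hold genes with no summit in any ranked list.

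In the V1 sector, subunit A holds the catalytic site for ATP. Vha68-2 (FBgn0263598) lies at 12974322 to 12978607 on 2L, plus strand, and Vha68-1 (FBgn0265262) at 13000770 to 13004107, minus strand. The peak of Vha68-2 spanned 12974000 to 12974395 on 2L, with its summit outside the gene, 124 bp upstream of the first of 5 TSSs. Its signal was 40.5 in replicate 1, 73.4 in replicate 2 and 117.8 for both libraries together. The peak of Vha68-1 spanned 13004131 to 13004526, 222 bp upstream of its TSS, with 58.5, 109.0 and 161.1. This additional copy thus carried the higher signal in each replicate, but its summit lay nearer (151 bp) to the TSS of mTor, the growth-controlling kinase on the opposite strand. Vha68-3 had only a weak candidate in the ranked lists, with 10.3 in replicate 1 and 4.8 in replicate 2. A ranked list holds peaks that missed the threshold as well as those that passed, and a candidate is such a peak near a TSS.

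Subunit B, the other nucleotide-binding subunit of the head, is encoded only by Vha55, and this gene had no promoter summit. Its candidate had 27.1 in replicate 1, 28.3 in replicate 2 and 57.5 together. Its global irreproducible discovery rate (IDR), which measures how poorly a peak's rank repeats between libraries, was 0.0531, above the limit of 0.01 met by every peak of the conservative list. Vha55 has 3 TSSs, and of all genes with 3 or 4 TSSs 51.3% had a promoter summit.

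Subunits C and H take part in joining V1 to V0 or in its regulation, and each is encoded by 1 gene. Both genes were bound. Vha44 (FBgn0287825, subunit C; 2R, 16324813 to 16336637, minus strand) had a summit 104 bp upstream of a TSS, with 26.0 in replicate 1, 72.5 in replicate 2 and 102.4 together. The same summit lay 19 bp from the TSS of Hmgs, which encodes a synthase of the mevalonate pathway. VhaSFD (FBgn0027779, subunit H; 2L, 16722883 to 16727826, minus strand) had a summit in its 5′ UTR, 145 bp downstream of its TSS, in a peak from 16727483 to 16727878 on 2L. No other gene's TSS lay within 500 bp of that summit. Its values were 36.6, 57.9 and 97.9, but neither replicate's own thresholded list held the peak.

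Subunits D and F form the central rotor. Vha36-1 (FBgn0022097, subunit D; 2R, 15541435 to 15542498, plus strand) had a summit 38 bp upstream of its TSS, with 39.2 in replicate 1, 65.5 in replicate 2 and 98.6 together, and 34 bp from the TSS of CG8187. The other D copies were unbound. Vha36-3 had a candidate of 15.0 and 31.3 in the 2 replicates, and Vha36-2 had none in any ranked list. Neither F gene was bound, and the candidates had 41.8 at Vha14-1 and 29.8 at Vha14-2 for both libraries together.

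Subunits E and G build the outer stalks that hold the head still. Vha26 (E) was unbound, with a candidate of 19.9 in replicate 1, 26.1 in replicate 2 and an IDR of 0.0798. Vha13 (G) lay just outside the threshold. Its candidate, 18 bp downstream of the TSS, had 25.5 in replicate 1, 81.7 in replicate 2 and 102.1 together, with an IDR of 0.011. The bound Vha44, with 102.4 and an IDR of 0.0087, lay just inside. The calls of these genes differ although their signals and IDRs lie close together.

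In the V0 sector, subunit a provides the channels through which protons reach and leave the ring. Vha100-2 (FBgn0028670; 3R, 18390323 to 18399169, minus strand) was the only one of 5 copies with a promoter summit. Its strongest peak (18397075 to 18397349 on 3R) had 210.6 in replicate 1, 441.5 in replicate 2 and 665.7 together, and ranked 187 among the 7676 peaks of the list. The summit lay 281 bp upstream of the inner TSS of Vha100-2, in an intron of that gene. It also lay 214 bp downstream of the TSS of Vti1b, in an exon of Vti1b. A separate peak sat at the outer TSS, 2241 bp away, with its summit 41 bp downstream of that start. It had 48.9, 59.0 and 113.6, and no other gene's TSS lay within 500 bp of it. A further 2 summits lay in introns of Vha100-2, with joint signals of 158.6 and 68.9.

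The other subunit a copies were weak in every list. Vha100-4 had a candidate of 13.7 in replicate 1 and 20.3 in replicate 2, and Vha100-1, a copy known for its role in neurons, had 16.6 and 14.3. Vha100-3 had a candidate of 12.3 in replicate 1 alone, and Vha100-5 had none. Each of these values lay below those of the bound copy in the same replicate.

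**Figure D2:**
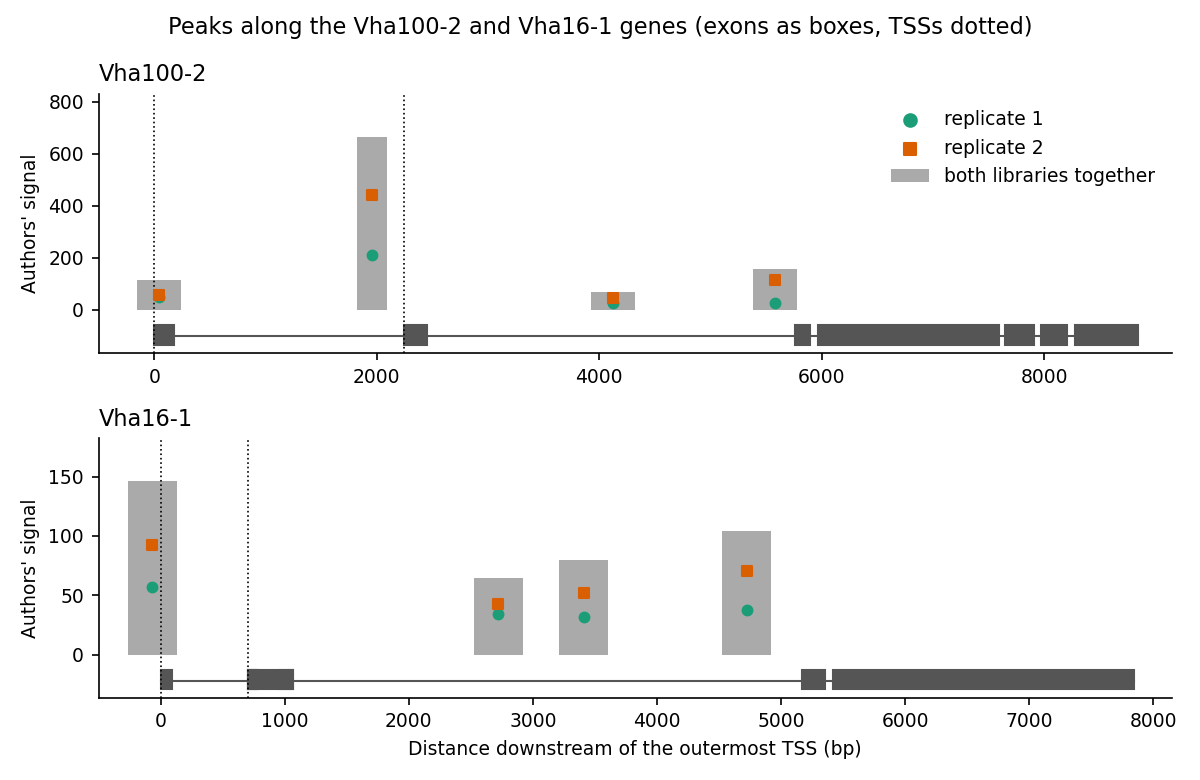
Peaks of the conservative list along Vha100-2 and Vha16-1, by distance in bp downstream of the outermost TSS, with exons as boxes and TSSs as dotted lines; grey bars span each peak and reach the authors' signal for both libraries together, and points give each replicate. The 2 promoter summits of Vha100-2 stand 281 bp upstream of the inner TSS and 41 bp downstream of the outer one.

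Subunit c forms the rotating proteolipid ring that binds protons, and 2 of its 5 genes were bound. Vha16-1 (FBgn0262736; 2R, 6625242 to 6633090, minus strand), the widely used copy, had a summit 69 bp upstream of a TSS with 57.1 in replicate 1, 92.7 in replicate 2 and 146.0 together, and no other gene's TSS within 500 bp. It also had 3 summits in introns, with joint signals of 104.0, 80.0 and 64.8, the first of them nearest to the TSS of CG33919. Vha16-5 (FBgn0032294; 2L, 10736319 to 10737043, minus strand), an additional copy, had a higher promoter signal of 73.5, 151.2 and 212.9 in a peak from 10737157 to 10737552 on 2L. The summit lay 312 bp upstream of its TSS but only 10 bp from that of CG12299 on the opposite strand. Vha16-2, Vha16-3 and Vha16-4 were unbound, and only Vha16-3 had a candidate (15.6 in replicate 1, none in replicate 2).

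The remaining V0 genes, for the ring subunit c″, subunit d, which couples the ring to the rotor, and the small subunit e, were all unbound. VhaM9.7-b (e) had a candidate of 19.7 in replicate 1 and 51.4 in replicate 2 at an IDR of 0.0534. VhaAC39-1 (d) had 15.0 and 42.2 at an IDR of 0.284. VhaPPA1-1 (c″) had 60.1 in replicate 2 and no candidate in replicate 1 or in the series' ranked list. VhaM9.7-b and VhaAC39-1 were thus higher in replicate 2, as were 7101 of the 8212 protein-coding genes with a candidate in both replicates. The additional copies had joint signals of 56.3 (VhaAC39-2), 51.5 (VhaM9.7-a), 37.3 (VhaM9.7-d), 36.2 (VhaM9.7-c) and 20.5 (VhaPPA1-2).

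The accessory protein AC45 assists sorting of the pump. Its genes VhaAC45 and VhaAC45RP had candidates of 32.3 and 31.3 for both libraries together. ATP6AP2, which lies outside the symbol rule, was unbound too, with 67.1.

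Across the 14 peaks at Vha genes (9 at promoters and 5 in bodies), replicate 2 had the higher signal at each one. The ratio of replicate 2 to replicate 1 ranged from 1.21 to 4.01 with a median of 1.74, and the median over 7322 peaks of the conservative list matched in both replicates was 1.72. The ratio at Vha genes was thus near that of the whole list. Replicate 1's thresholded list held 6 of the 14 peaks and replicate 2's held 10. The strongest promoter signal of the 8 bound genes ranged from 97.9 to 665.7 with a median of 131.9, beside a median of 138.2 over the 2993 bound protein-coding genes.

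**Figure D3:**
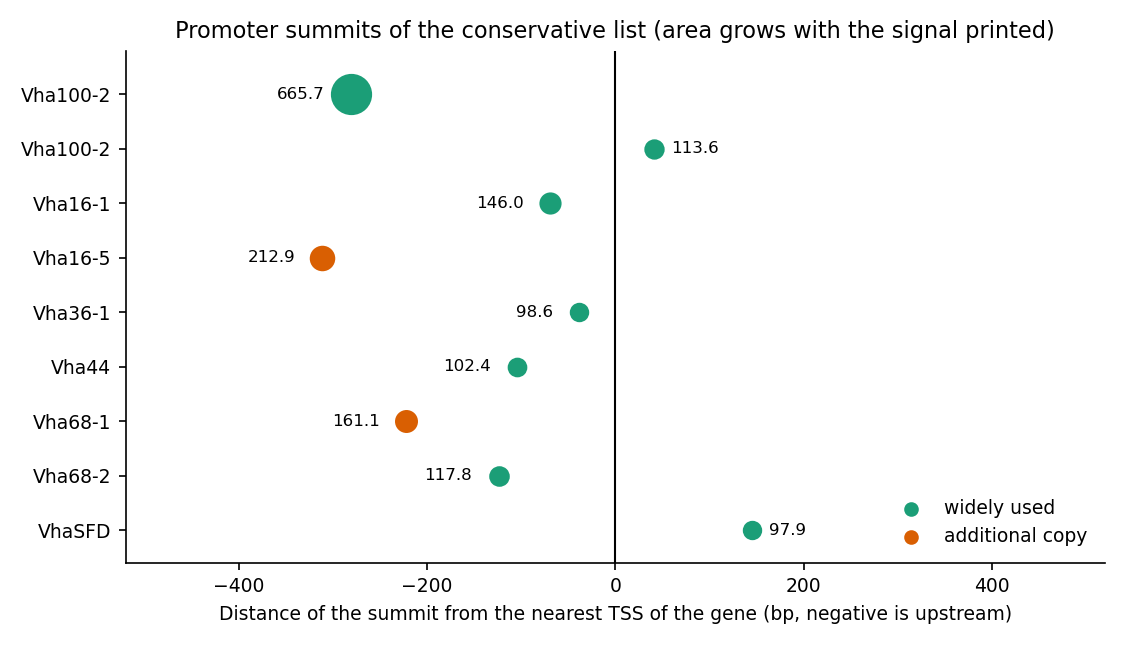
Position in bp of each of the 9 promoter summits relative to the nearest TSS of its Vha gene, negative values being upstream, with the joint signal printed beside each point and marker area growing with it. Of the summits, 7 lie upstream and 2, at Vha100-2 and VhaSFD, downstream.

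The distance of a promoter summit from the TSS of its Vha gene ranged from 38 to 312 bp with a median of 124. At 5 of the 9 summits another gene's TSS also lay within 500 bp, and at these it was the nearer one, so the data do not assign the peak to either gene. The genes concerned were Vha16-5, Vha36-1, Vha44, Vha68-1 and, at its inner TSS, Vha100-2. Both bound additional copies are therefore among genes whose only promoter summit lay nearer to a neighbour. When summits were counted only for the gene with the nearest TSS, 4 Vha genes (12.1%) remained bound, below the 17.3% of all genes. They were Vha100-2, Vha16-1, Vha68-2 and VhaSFD, all widely used, which made 28.6% of the widely used genes.

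The widely used genes and the additional copies also differed in gene structure. A single TSS was annotated at 9 of 14 widely used genes and 16 of 19 additional copies, and the median gene span was 2907 and 1371 bp, beside 2166 bp over all genes. Of all genes with 1 TSS 15.3% were bound, of those with 2 TSSs 31.4% and of those with 5 or more 73.7%. Among Vha genes with 1 TSS, 2 of 9 widely used and 2 of 16 additional copies were bound. With 2 TSSs, 3 of 3 widely used genes (Vha100-2, Vha16-1 and Vha44) and 0 of 3 additional copies were. The single gene with 5 TSSs, Vha68-2, was bound.

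An opposite-strand TSS of another gene within 500 bp upstream (a head-to-head arrangement) was present at 8 of 14 widely used genes and 5 of 19 additional copies. Of all genes so arranged 34.2% were bound, and of the others 16.7%. Among the head-to-head Vha genes 3 of 8 widely used and 2 of 5 additional copies (Vha16-5 and Vha68-1) were bound. Among the rest, 3 of 6 widely used and 0 of 14 additional copies were. For genes with 1 TSS and no head-to-head neighbour the background was 10.7%, and 1 of 4 widely used (VhaSFD) and 0 of 13 additional copies were bound. The part that TSS number and neighbours play in the contrast between classes was not tested.

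The strongest ranked summit of each gene, bound or not, was also set out by class. For both libraries together, 13 of 14 widely used genes had a ranked summit within 500 bp, with a median signal of 97.9, and 14 of 19 additional copies had one, with a median of 34.0. Over all genes, 9596 (68.8%) had one, with a median of 51.3. In replicate 1 the medians were 26.0 and 15.6, beside 21.9 over all genes, and in replicate 2 they were 60.1 and 18.1, beside 34.5. Among the unbound genes alone, the medians for both libraries together were 55.6 over 7 widely used genes, 31.6 over 12 additional copies and 37.8 over all genes. For these unbound genes they were 19.7, 15.0 and 16.4 in replicate 1, and 42.2, 16.7 and 25.3 in replicate 2. Each of these medians covers only genes with a candidate.

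The calls moved with the list and the window. With the other thresholded list of the series 10 Vha genes (30.3%) were bound beside 23.0% of all genes, Vha13 and VhaM9.7-b being added. In replicate 2's own list 10 (30.3%) were bound beside 20.5%, with VhaPPA1-1 added as well and VhaSFD lost. In replicate 1's own list 4 (12.1%) were bound beside 13.1%. Of these 4 genes, 2 were widely used (Vha100-2 and Vha16-1) and 2 were additional copies (Vha16-5 and Vha68-1). The contrast between the classes was therefore absent from the replicate 1 list as a count, with 2 of 14 against 2 of 19.

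At a stricter IDR of 0.001, 5 (15.2%) were bound beside 12.9%, and the 4 genes of the replicate 1 list were among them, with Vha68-2 added. Within 250 bp of a TSS 7 (21.2%) were bound beside 17.6%, and within 1000 bp 9 (27.3%) beside 25.5%. Counting any base of a peak within 500 bp gave the same 8 genes (24.2%), beside 23.1%. Only Vha100-2 and Vha16-1 were bound under all 9 settings. No single promoter peak of Vha100-2 met all of these. Its peak of signal 665.7, with the summit 281 bp from the inner TSS, missed the 250 bp window and the nearest-TSS rule. The peak at its outer TSS, with an IDR of 0.00129, missed the limit of 0.001. Of the 33 genes, 21 were bound under none of the 9 settings. These included Vha55, Vha26, VhaAC39-1 and VhaAC45 among the widely used ones.

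**Figure D4:**
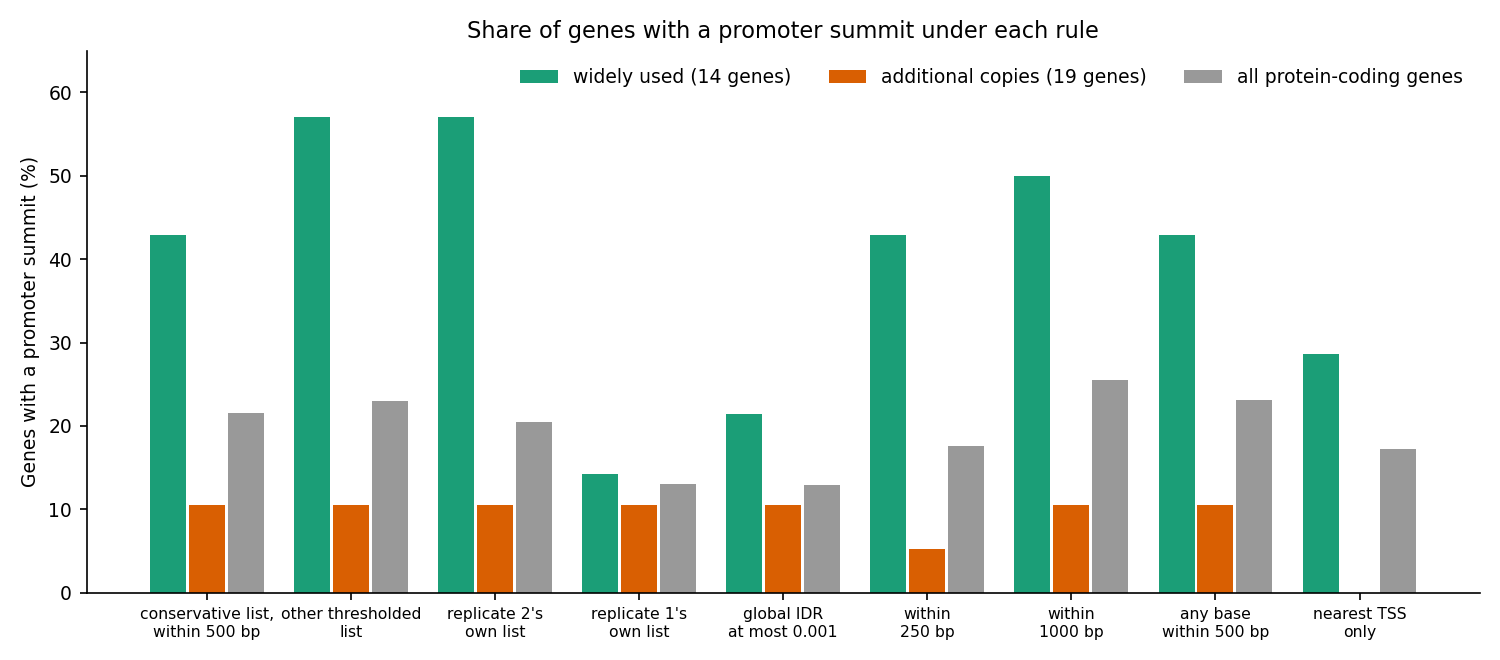
Percentage of widely used Vha genes, additional copies and all protein-coding genes with a promoter summit under each of the 9 settings. Widely used genes stand at 42.9% and additional copies at 10.5% in the main setting, and the 2 classes come closest in replicate 1's own list.

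Other genes of the pathway were read from lists by the same rule. Of 11 genes for assembly and regulation of the pump, 2 (18.2%) had a promoter summit beside the 21.5% of all genes. Lamtor3, of the Ragulator complex that joins the pump to growth signalling on lysosomes, had 456.7 in replicate 1, 650.9 in replicate 2 and 1102.2 together, above any Vha gene. Lamtor5 of the same complex had 36.0, 70.7 and 91.9. Mitf, which activates V-ATPase genes in flies, and Rbcn-3A, a regulator of assembly, were unbound, with candidates of 46.3 and 39.0.

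Of 14 lysosomal genes, 3 (21.4%) were bound. They were the membrane protein gene Cln7 (212.2 for both libraries together) and the cathepsin genes CtsL1 (117.1) and CtsF (84.8). Of 16 genes for epithelial transport, 3 (18.8%) were bound, which were the potassium channel Irk1 (267.0), the sodium/proton exchanger Nhe3 (155.5) and the chloride channel ClC-a (90.3). The mitochondrial ATP synthase, the rotary relative of the pump, was read from the 15 genes whose symbols begin with ATPsyn. Of these, 1 (6.67%) was bound. This was ATPsynCF6, with 38.5 in replicate 1, 69.2 in replicate 2 and 100.6 together. The unbound ATPsynE had a candidate of 102.0 together, so its signal lay close to that of the bound gene. The shares of the first 3 lists lay near that of all genes, and that of the ATP synthase list, with 1 bound gene, lay below it.

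Short motifs were searched on both strands in the 250 bases before and 50 after the start of each gene. Motif 1 (GGTCACAC), a core promoter element of widely expressed fly genes, was present at 4 Vha genes (12.1%) and at 7.7% of all genes. The DNA replication-related element (TATCGATA) was present at 2 (6.06%) and at 9.36% of all genes. The E-box CACGTG, read by Mitf, was present at 3 (9.09%), which were Vha44, VhaAC45RP and VhaM9.7-d, and at 4.2% of all genes.

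The remaining motifs were more common or lay at few Vha genes. TATAAA was present at 17 (51.5%) and at 45.8% of all genes, CAGCTG at 8 (24.2%) and 17.7%, and GAGAGAG at 2 (6.06%) and 5.87%. Vha100-2 is not among the 8 genes with CAGCTG, because its inner TSS was not the start searched. TATAAA was found at 6 of 14 widely used genes and 11 of 19 additional copies. None of the motifs searched contains another, and a match is a description of the sequence only.

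Motif 1 sat across the TSS at Vha26 and Vha100-1, which were both unbound, and the DNA replication-related element sat just before the TSS of the bound VhaSFD. These starts are shown with the motif in capitals, as 22 bases before the TSS, the TSS and 7 after it for the first 2 genes, and as the 30 bases before the TSS for VhaSFD.
Vha26 (chr3R:5591741-5591770, plus strand): ttttaccctcgcaatcgcagGGTCACACtt
Vha100-1 (chr3R:29131171-29131200, plus strand): taaatccaatgacctgccacGGTCACACta
VhaSFD (chr2L:16727827-16727856, minus strand): ctcgtcaTATCGATAttcttatatatcgaa
The bases within 50 of the 9 promoter summits had a median of 48.5% G and C, with a range from 25.7% to 63.4%. The median over all peaks of the conservative list was 36.6%. That list also holds peaks away from promoters, and a median over promoter peaks alone was not computed, so the sets are unlike. The promoters themselves had medians of 39.0% in widely used genes, 34.0% in additional copies and 38.0% over all genes.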

How the data were processed

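The data are peak lists from 2 ChIP-seq libraries of whole pupae, in the dm6 assembly per the labels. The authors deposited a signal for each peak, used here to describe and rank peaks; its scale is unknown, as is read depth, and the sources used here give neither aligner nor peak caller. The authors also deposited the −log10 of the global irreproducible discovery rate (IDR) in the ranked lists. Notes beside the samples record that a further file of undescribed content went into the lists. The conservative thresholded list of both libraries (7676 peaks) was the main set. Genes with a summit at most 500 bp from any TSS (Ensembl release 115) were called bound. Replicate signals were read from the ranked list of each library, at the closest summit up to 200 bp away, and a candidate is the strongest ranked summit within 500 bp of a TSS. Sequences come from the RefSeq Release 6 genome. Python 3.11.15 and pandas 2.3.3 were used, and the assignment rule was tested on simulated data.

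Members, classes, lists and motifs were chosen with earlier results of these data known, and the classes rest on textbook knowledge of the pump. The naming rule covered every Vha gene, neighbours sharing a summit, and from each other list the bound genes with the highest signal (at most 4) and at most 2 without a summit. Alternatives were the other thresholded list, each replicate's own list, an IDR limit of 0.001, windows of 250 and 1000 bp, any base of a peak, and the nearest TSS only. Counts have no test, since there is 1 group.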

Additional observations from a re-analysis of the deposited data

How the results depend on the processing

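The main counts were 8 bound Vha genes, 6 widely used and 2 additional copies, with 0 bound in the body alone. Leaving out each replicate in turn gave 4 to 10 Vha genes, 2 to 8 widely used ones, 2 to 2 additional copies and 0 to 0 in the body alone. Without replicate 2, that is in replicate 1's own list, the widely used genes bound were Vha100-2 and Vha16-1. An IDR limit of 0.001 gave 5 Vha genes and 3 widely used ones. Counting only the nearest TSS gave 4 Vha genes and 0 additional copies. A window of 250 bp left 1 additional copy, Vha68-1. Every other count under these alternatives was within 1.5 times the main one. No paired analysis was possible because there is 1 group. Read depth is unknown, so a gene without a summit was not detected at this depth, and neighbouring genes can share a peak. The notes do not describe 1 file that went into the lists, and no control sample was analysed here.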

Other observations

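Some widely used Vha genes were bound under an alternative only. Vha13, which encodes the outer stalk subunit G, had a peak from 19644170 to 19644565 on 3R in the other thresholded list (signal 102.1) and a peak of 81.7 in replicate 2's own list. VhaM9.7-b, which encodes the small V0 subunit e, had a peak of 67.9 in the other thresholded list, 347 bp upstream of its TSS and 68 bp from that of COX8, a respiratory chain gene. VhaPPA1-1, for the ring subunit c″, had a peak of 60.1 in replicate 2's own list, 163 bp downstream of its TSS. Vha14-1, for the rotor subunit F, was bound only within 1000 bp, through a summit of 394.1 that lay 861 bp from its TSS, past its 659 bp gene, and 267 bp from that of Gmppa.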
